A study of Mus musculus with 9 samples.

Results

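Beige adipocytes are fat cells that arise within white fat depots and can burn lipid for heat. Their late maturation in culture was followed by comparing ribosome footprints at day 8 with those at day 4 of differentiation. The comparison takes 6 of the 9 libraries of the series, those labelled day 4 (3 libraries) and day 8 (3 libraries). All cells were mouse preadipocytes of inguinal white adipose tissue (iWAT), a subcutaneous depot. Cells of both groups were induced for 2 days with dexamethasone, 3-isobutyl-1-methylxanthine (IBMX), indomethacin, insulin, triiodothyronine and rosiglitazone. They were then kept in maintenance medium without dexamethasone, IBMX and indomethacin, so both days lie after the withdrawal of these 3 agents. The 3 uninduced libraries of day 0 did not enter the contrast and are quoted for reference. They did enter the choice of tested genes, the scaling and the shared estimate of spread. The sources used here do not give the strain, the number of animals or whether replicates are separate cultures.

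Footprints are mRNA fragments that a ribosome shields from RNase, so their number on a gene combines the amount of its mRNA with the ribosomes on it. In heat-producing fat, noradrenaline raises cyclic AMP, lipolysis frees fatty acids, and the inner mitochondrial membrane protein UCP1 lets protons flow back without making ATP. Maturation of such cells is known for a gain of mitochondria and lipid droplets and a loss of the collagen-rich coat of the precursor. Dexamethasone acts through the glucocorticoid receptor, IBMX raises cyclic AMP by blocking phosphodiesterases, and indomethacin blocks the cyclooxygenases of prostaglandin synthesis.

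Of 55359 genes in the table, 14714 had enough counts to be tested, and all of them are members of the comparison. The test was edgeR's quasi-likelihood test, and a gene counted as called where its p, adjusted over all tested genes by Benjamini-Hochberg, was under 0.05. A total of 4676 genes (31.8%) were called, of which 2159 (14.7%) were higher and 2517 (17.1%) lower at day 8. Among all tested genes, 6655 (45.2%) had no overlap between the 3 libraries of day 4 and the 3 of day 8. Of the 4676 called genes 4554 had no overlap, so where it is stated for a called gene it adds little to the call. Changes over 2-fold were found for 828 of the higher and 982 of the lower genes. Library totals lay between 34870272 and 38994892 counts. Levels are given below as CPM, the counts scaled to the library's TMM-adjusted total, library by library in the order of replicates 1, 2 and 3. Changes are fitted log2 fold changes, day 8 over day 4, followed by ± their standard error.

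Both days held a library that stood apart from its group. Day 4 replicate 2 had the lowest level of fat cell genes and the highest of precursor and matrix genes in its group. The 24 fat cell identity genes summed to 92344, 62623 and 96480.0 CPM at day 4 and to 85563, 81041 and 81145 CPM at day 8. The precursor markers summed to 1551, 3288 and 1706 CPM at day 4 and to 1119, 1095 and 1599.7 CPM at day 8, with day 8 replicate 3 the highest of its day. Without day 4 replicate 2 and day 8 replicate 3, 5481 of 15012 genes (36.5%) were called, 2496 (16.6%) higher and 2985 (19.9%) lower. Of the 4676 called genes, 4156 were called in the same direction in that fit and 0 changed sign. Leaving out day 8 replicate 1 reduced the calls to 2706, and leaving out day 8 replicate 2 to 2760. Altogether 2370 of the 4676 genes were called the same way in each of the 9 fits that left out 1 library. Genes named below as called kept their call in all 9 of those fits unless a loss is stated. The number of calls in a list is also given without a library that moved it by more than 1.5 times, except that counts of 3 or fewer, many of which changed when 1 library was left out, are given without this range. Scaling to library totals in place of TMM moved the median of all genes from -0.02 to 0.12 and the share of higher genes among the called from 46.2% to 65.9%.

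**Figure D1:**
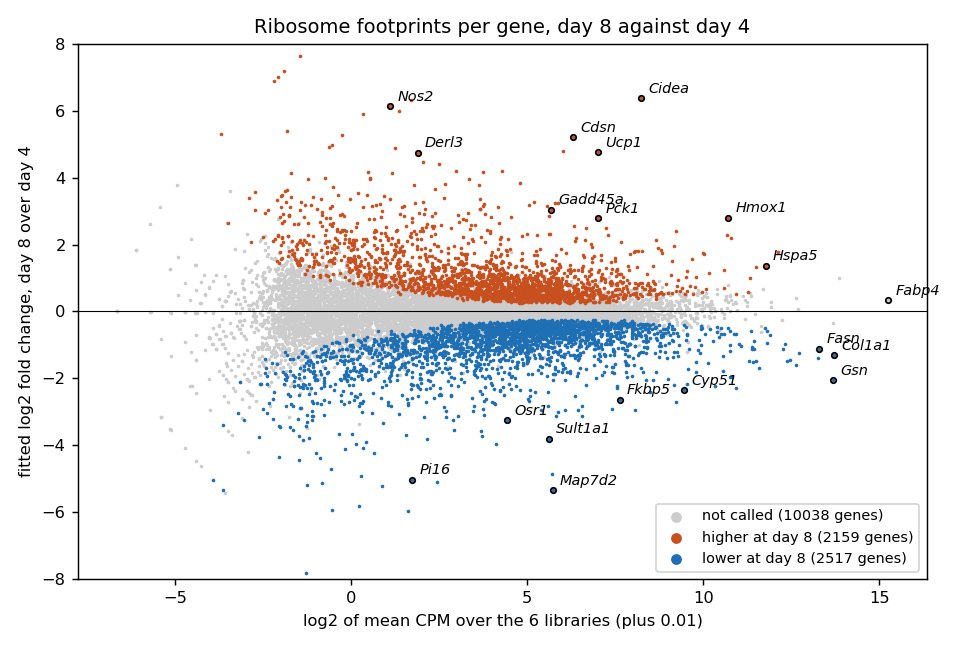
Fitted log2 fold change of each tested gene at day 8 over day 4 (y axis) against the log2 of its mean CPM over the 6 libraries (x axis). Orange points are the 2159 genes called higher, blue points the 2517 called lower and grey points the genes not called. Cidea and Ucp1 lie among the highest rises of well-counted genes, Map7d2 and Pi16 among the deepest falls, and Fabp4, the most abundant gene marked, lies near 0.

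The cultures held fat cells on both days by their defining markers, and with all libraries most genes of that identity were not called. Most were called, chiefly as falls, without the libraries that stood apart. Fabp4, the fatty acid carrier of fat cells, stood at 38591, 25125 and 39460.3 CPM at day 4 and at 44509, 43307 and 42062 CPM at day 8, against a mean of 187 CPM at day 0. The day 8 libraries all lay above those of day 4, but the difference did not pass the test (0.33 ± 0.24, adjusted p = 0.326). Pparg, the nuclear receptor that drives fat cell formation and the target of rosiglitazone, was at 359.9, 209 and 354 CPM and then at 316, 294 and 272 CPM, with overlapping groups (-0.07 ± 0.26, adjusted p = 0.865). Cebpa, its partner transcription factor, gave -0.33 ± 0.20 (adjusted p = 0.232), but fell without the libraries that stood apart (-0.50, adjusted p = 0.00151). Of the 24 identity genes tested, 1 rose and 5 fell (25.0% called, against 31.8% of all tested genes), with a median of -0.14. Without the libraries that stood apart, 2 rose and 12 fell. The falls numbered 11 without day 4 replicate 2, 2 without day 4 replicate 3 or day 8 replicate 2, and 3 without day 4 replicate 1, day 8 replicate 3 or any 1 of the day 0 libraries. Cebpb, a factor of early differentiation, was the gene that rose (0.86 ± 0.18), and Cebpd, another such factor, fell (-0.76 ± 0.12). Cidec, a protein that fuses lipid droplets into large ones, fell from 3886, 2557 and 4376 CPM to 1856, 1576 and 1711 CPM (-1.07 ± 0.20, adjusted p = 0.00444), with no overlap. Adipoq, the gene of the hormone adiponectin, fell by less, from 3103, 2730.2 and 3599.6 CPM to 2181, 1862 and 2239 CPM (-0.59 ± 0.15, adjusted p = 0.0168), and missed the threshold without day 4 replicate 3 (adjusted p = 0.0546) or day 8 replicate 2 (0.0711). The median of the list was 0.01 with library totals, so its direction depended on the scaling. In a bulk culture, fewer cells of a type and less of an mRNA per cell cannot be told apart.

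Many genes of heat production by uncoupling rose, and none of those tested fell. Of 26 tested members, 15 rose and 0 fell, with a median log2 change of 0.81, against -0.02 over all tested genes. Without the libraries that stood apart 19 rose, and 11 rose in each of the fits that left out 1 library. Ucp1 itself stood at 16.7, 3.41 and 7.47 CPM at day 4 and at 293, 328 and 129 CPM at day 8. Every day 8 library exceeded every day 4 library, and replicate 3 was the lowest of day 8. The fitted rise was 4.77 ± 0.58 (27.2-fold, adjusted p = 0.000567), and 5.52 without day 4 replicate 1, the highest of its group. Cidea, which sits on the lipid droplets of heat-producing fat cells, went from 13.5, 3.03 and 4.93 CPM to 733, 730.1 and 326 CPM. Day 8 replicate 3 was again the lowest of its day and still far above day 4, and the rise was 6.38 ± 0.60 (adjusted p = 0.000208), or 7.23 without day 4 replicate 1. Otop1, a proton channel and marker of heat-producing fat, was at 4.13, 2.26 and 4.68 CPM and then at 38.0, 39 and 19.9 CPM (3.13 ± 0.32, adjusted p = 0.000269).

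Regulators of the same list had smaller rises than these 3 genes or did not pass the test. Ppara, the nuclear receptor for fatty acid oxidation genes, rose from 52.5, 34.6 and 57.3 CPM to 216, 211 and 119 CPM (1.92 ± 0.24, adjusted p = 0.000723), with no overlap. Ppargc1a, the coactivator PGC-1α of mitochondrial growth, was at 25.1, 12.8 and 25.2 CPM and then at 42.7, 35 and 30.1 CPM. Its rise of 0.77 ± 0.24 (adjusted p = 0.0327) missed the threshold without day 8 replicate 1 (adjusted p = 0.124) or replicate 2 (0.0777), and without day 0 replicate 1 (0.0513) or replicate 3 (0.0502). Prdm16, which holds cells in the brown and beige fate, was not called (0.60 ± 0.23, adjusted p = 0.0725), nor was Ppargc1b (0.27 ± 0.24, adjusted p = 0.404). Elovl3, a fatty acid elongase of cold-exposed fat, was already at 229, 149 and 228 CPM at day 4 and reached 282, 241 and 295 CPM without passing the test (0.43 ± 0.17, adjusted p = 0.0791). Other members that rose included Sirt3, a mitochondrial deacetylase (1.09 ± 0.24), and the beige markers Tnfrsf9 (2.16 ± 0.24) and Cited1 (1.73 ± 0.32). Tmem26, another proposed beige marker, was under 1 CPM in all 6 libraries.

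Genes of creatine and calcium cycling, other known routes of heat production, showed no common direction. Of 8 tested genes 1 rose and 2 fell. Ckb, the creatine kinase of the creatine cycle, rose from 17.5, 13.8 and 16.9 CPM to 28.9, 29.0 and 38.4 CPM (1.00 ± 0.14, adjusted p = 0.00107). Gamt, the enzyme that makes creatine, fell from 29.9, 29.4 and 37.3 CPM to 11.2, 9.73 and 14.1 CPM (-1.46 ± 0.17, adjusted p = 0.000455). For both genes the groups did not overlap. Among 26 genes of adrenergic and cyclic AMP signalling, 6 rose and 0 fell (23.1% called, against 31.8% of all tested genes). The adrenergic receptor Adra1a rose by 2.40 ± 0.32 and the cyclase Adcy3 by 0.83 ± 0.11. Adrb3, the main β-adrenergic receptor of rodent fat, was not called (0.70 ± 0.40, adjusted p = 0.207).

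**Figure D2:**
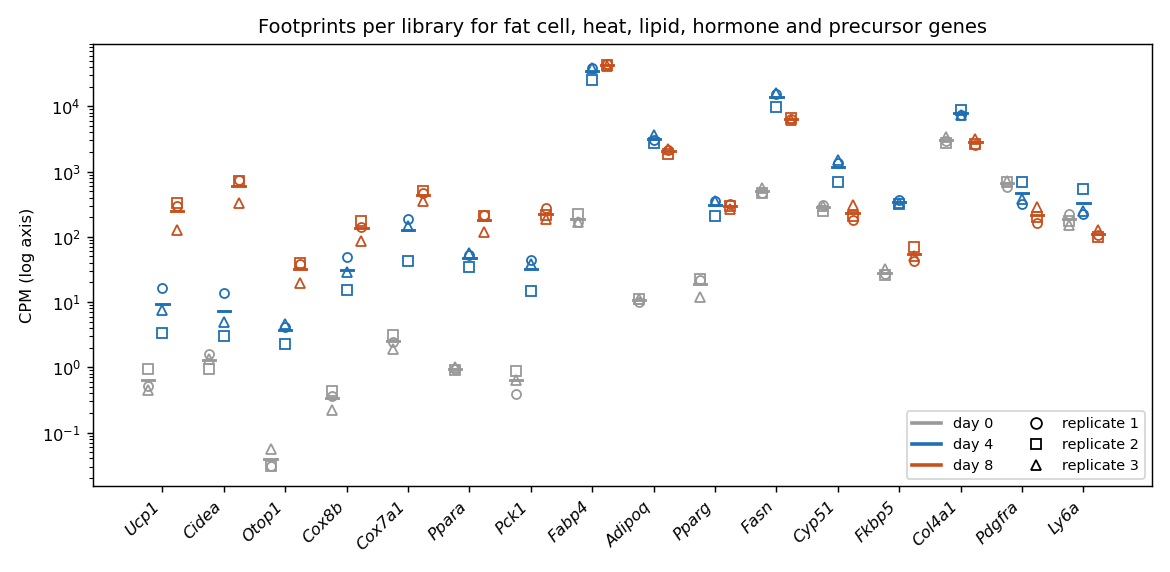
CPM (log axis) of 16 genes in each library at day 0 (grey), day 4 (blue) and day 8 (orange). Symbols mark the replicates and bars the group means. Ucp1, Cidea and Otop1 lie higher in all 3 day 8 libraries than in any day 4 library, Fabp4 and Pparg stay at similar levels, and Fasn, Cyp51, Fkbp5 and Col4a1 lie lower at day 8.

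Many nuclear genes of the respiratory chain, which pumps the protons that UCP1 lets back, rose by less than 2-fold, and how many passed the test depended on which libraries were used. Of 56 tested subunits, 26 rose and 0 fell, with a median of 0.52. The count of rises was 3 without day 8 replicate 1, 4 without day 8 replicate 2, 15 without any 1 of the day 0 libraries, and 42 without the libraries that stood apart. It was 8 in the fit of the 6 libraries of day 4 and day 8 alone. The summed level was 25164, 15926 and 24867 CPM at day 4 and 32431, 32526 and 25562 CPM at day 8. Day 8 replicate 3 lay only slightly above the higher day 4 libraries. The complex I genes Ndufa5 (0.86 ± 0.16), Ndufa12 (1.00 ± 0.14) and Ndufs5 (0.73 ± 0.15) were called in every fit that left out 1 library. Cytochrome c oxidase, the last enzyme of the chain, has some subunits with a general form and a form of heart, muscle and brown fat. The list of its isoforms also holds genes that are not of such pairs, among them Cox4i2, Cox6b2 and Cox7a2l. It shares Cox8a, Cox6a1, Cox7a2 and others with the respiratory chain list, and Cox7a1 and Cox8b with the heat production list. Of its 12 tested genes 8 rose and 1 fell, with 3 rises without day 8 replicate 1 or replicate 2 and 5 without any 1 of the day 0 libraries. Cox7a1, a form of heart, muscle and brown fat, rose from 188, 42.4 and 147 CPM to 476, 504 and 349 CPM (1.82 ± 0.43, adjusted p = 0.0123). Cox8b was at 48.2, 15.5 and 29.2 CPM and then at 142, 175 and 85.8 CPM (2.12 ± 0.38, adjusted p = 0.0035). Cox6a2 was at 3.75, 1.49 and 2.76 CPM and then at 25.4, 27.2 and 20.8 CPM (3.20 ± 0.28, adjusted p = 0.000173). Day 4 replicate 2 was the lowest library for each of these forms, and the groups did not overlap. Cox7a2, the general counterpart of Cox7a1, had a smaller rise (0.53 ± 0.16, adjusted p = 0.0315), which was lost without day 8 replicate 1 (adjusted p = 0.117) or replicate 2 (0.0967) and without day 0 replicate 1 (0.052), 2 (0.0509) or 3 (0.0502). The general forms Cox8a (0.67 ± 0.22, adjusted p = 0.0434) and Cox6a1 (0.72 ± 0.22, adjusted p = 0.0313) also rose. Both lost their call without day 8 replicate 1, day 8 replicate 2, day 4 replicate 3 or day 0 replicate 1, and Cox8a also without day 0 replicate 2 or 3 (adjusted p up to 0.137 for Cox8a and 0.119 for Cox6a1). Cox6b2 was the member that fell (-0.58 ± 0.18, adjusted p = 0.0327), and its call was lost without day 0 replicate 3, day 4 replicate 1 or 3, or day 8 replicate 1 or 3 (adjusted p up to 0.1). The difference between the forms was not tested.

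The mitochondrion's own genes moved unevenly. Of the 13 proteins encoded by mitochondrial DNA, 4 rose and 1 fell, with 2 rises without day 8 replicate 1. mt-Co1, the catalytic subunit of cytochrome c oxidase, rose from 433, 381 and 449.7 CPM to 857, 905 and 679 CPM (0.95 ± 0.16, adjusted p = 0.00284). mt-Cytb, the cytochrome of complex III, had lower values at day 8, 345, 417 and 464 CPM before and 273, 272 and 285 CPM after (-0.56 ± 0.14, adjusted p = 0.0161), a fall lost without day 4 replicate 3 (adjusted p = 0.0556), day 8 replicate 1 (0.0576) or day 8 replicate 2 (0.0583). Among 76 mitochondrial ribosomal proteins, 18 rose and 2 fell (26.3% called, against 31.8% of all tested genes), and 10 rose without day 8 replicate 1 or replicate 2. Without day 4 replicate 2, 16 rose and 8 fell, and without both libraries that stood apart 26 rose and 5 fell. Fatty acid oxidation had 7 rises and 3 falls of 26, with 4 rises without day 8 replicate 1 or replicate 2. Hadhb, of the trifunctional protein, rose from 97.7, 53.1 and 88.1 CPM to 216, 209 and 134 CPM (1.22 ± 0.24, adjusted p = 0.0055). In the citric acid cycle list 3 of 28 rose and 0 fell (10.7% called). Without the libraries that stood apart 10 rose and 4 fell, and without day 4 replicate 2 alone 6 rose and 4 fell. The rises numbered 7 without day 4 replicate 1 and 6 without day 8 replicate 3, with 0 falls in both fits. Its members Idh2, a mitochondrial isocitrate dehydrogenase (1.13 ± 0.21), and Pdk4, the kinase that shuts pyruvate out of the cycle, rose. Pdk4 was at 205, 163 and 204 CPM at day 4 and at 1151, 1279.5 and 584 CPM at day 8 (2.40 ± 0.27, adjusted p = 0.000418).

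Chaperones and folding factors of the endoplasmic reticulum (ER) rose far more often than they fell. The unfolded protein response raises such genes when unfolded proteins build up in the ER, through the sensors IRE1 (Ern1), ATF6 and PERK. Of 24 tested members, 13 rose and 1 fell, with a median of 0.51, and 11 rose in every fit that left out 1 library. Without the libraries that stood apart 16 rose. The gene that fell was P4hb, a disulfide isomerase (-0.49 ± 0.17, adjusted p = 0.0478), and its call was lost without any 1 library other than day 4 replicate 1 and day 8 replicate 3 (adjusted p up to 0.161). The summed level was 10325, 12515 and 11150.0 CPM at day 4 and 17355, 17465 and 16634 CPM at day 8, with no overlap. Hspa5, the main ER chaperone BiP, rose from 1854, 2092 and 1907 CPM to 5215, 5367 and 4476 CPM (1.36 ± 0.14, adjusted p = 0.000332). Sdf2l1, a partner of BiP, was at 16.0, 20.5 and 16.7 CPM and then at 70.6, 73.6 and 51.7 CPM (1.88 ± 0.16, adjusted p = 0.000145). Ero1a, the oxidase that makes disulfide bonds, was at 844, 214 and 619 CPM and then at 2700.5, 2566 and 2869.6 CPM (2.28 ± 0.40, adjusted p = 0.00309), with day 4 replicate 2 far below its group.

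Further members that rose were Ero1b (1.65 ± 0.23), Creld2 (1.19 ± 0.16), the sensor Ern1 (1.36 ± 0.12), Manf (0.95 ± 0.13), and, by less, the transcription factors Atf6 (0.55 ± 0.11) and Xbp1 (0.52 ± 0.09). Derl3, a channel protein for the removal of misfolded proteins that was taken by the rule for the largest changes, was nearly silent at day 4 and rose to 6.67, 6.98 and 7.87 CPM from 0.32, 0.11 and 0.367 CPM (4.74 ± 0.36, adjusted p = 0.000106). The lectin chaperones Calr (-0.01 ± 0.16, adjusted p = 0.972) and Canx (-0.35 ± 0.15, adjusted p = 0.0949) and the disulfide isomerase Pdia4 (0.21 ± 0.15, adjusted p = 0.307) were not called.

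Some promoters of the list hold the element through which the response is known to act. The ER stress response element reads CCAAT, any 9 bases, then CCACG, and was searched on both strands in the 250 bases before each RefSeq gene start (GRCm38.p6). It was found in 9 of the 21 ER genes with a promoter in the table and in 0.13% of all genes. Of the 9 genes with it 4 rose and 0 fell, and of the 12 without it 6 rose and 1 fell. The stretches below, 5′ to 3′ in the direction of the gene, come from 3 genes that rose and from Calr, which did not. Capitals mark the element, which lies on the opposite strand in the 3 shown beside Hspa5.
Hspa5 (chr2:34771995-34772073, plus strand): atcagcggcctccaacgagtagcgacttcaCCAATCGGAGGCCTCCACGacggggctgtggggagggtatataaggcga
Creld2 (chr15:88819490-88819568, plus strand): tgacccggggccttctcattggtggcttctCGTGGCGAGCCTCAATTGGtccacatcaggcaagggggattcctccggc
Ero1b (chr13:12565652-12565730, plus strand): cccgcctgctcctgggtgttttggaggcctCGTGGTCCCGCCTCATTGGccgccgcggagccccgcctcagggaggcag
Calr (chr8:84847045-84847123, minus strand): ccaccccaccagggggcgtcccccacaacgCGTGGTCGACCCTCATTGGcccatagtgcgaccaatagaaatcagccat
The element thus stood before a gene that rose by 1.36 and before one at -0.01, and a match describes the sequence only.

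A related arm, the integrated stress response, had genes that rose as well. In it the translation factor eIF2 is phosphorylated, ATF4 is made in larger amounts, and ATF4 and its target CHOP (Ddit3) switch on genes of amino acid supply, redox balance and cell death. Of 26 tested genes of the list, 13 rose and 3 fell, with a median of 0.58, and 11 rose in every fit that left out 1 library. Without the libraries that stood apart 14 rose. Atf4 went from 150.4, 90.9 and 119.9 CPM to 312, 248 and 231 CPM (1.13 ± 0.19, adjusted p = 0.0025). Ddit3 was at 5.61, 4.6 and 4.48 CPM and then at 41.8, 22.9 and 13.0 CPM (2.40 ± 0.42, adjusted p = 0.00324). Its day 8 libraries differed over 3-fold among themselves, yet all lay above day 4. Trib3, a pseudokinase target of both factors, rose from 67.4, 18.5 and 51.8 CPM to 301, 267 and 209 CPM (2.50 ± 0.38, adjusted p = 0.00171).

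Chac1, which breaks down glutathione, was at 9.94, 2.78 and 7.16 CPM and then at 37.7, 36.4 and 19.7 CPM (2.24 ± 0.40, adjusted p = 0.00346). Ppp1r15a, the phosphatase subunit that reverses eIF2 phosphorylation, rose from 21.2, 11.6 and 17.6 CPM to 97.6, 84.1 and 68.6 CPM (2.31 ± 0.21, adjusted p = 0.000195). Gdf15, a stress hormone that curbs appetite, was at 11.0, 13.6 and 7.22 CPM and then at 114, 117 and 71.1 CPM (3.25 ± 0.30, adjusted p = 0.000192). In all 3 genes the groups did not overlap. The related stress factor Atf3 rose by 3.35 ± 0.27, Herpud1, of ER protein removal, by 1.68 ± 0.17, and Nupr1 by 1.21 ± 0.12. Atf3 is not in this list and is counted among the adrenergic and cyclic AMP signalling genes. Enzymes of amino acid synthesis in the list went both ways. Asns, the asparagine synthetase, rose by 0.74 ± 0.16, whereas Psat1, of serine synthesis, fell (-0.40 ± 0.13, adjusted p = 0.0357). The fall of Psat1 lost its call without day 8 replicate 1 (adjusted p = 0.0942), day 8 replicate 2 (0.135), day 4 replicate 3 (0.105), day 0 replicate 2 (0.0557) or day 0 replicate 3 (0.0523). Slc7a11, the cystine transporter (-0.50 ± 0.21, adjusted p = 0.101), and Fgf21, a hormone target of ATF4 (0.74 ± 0.39, adjusted p = 0.172), were not called.

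The C/EBP-ATF response element TGATGNAA, bound by ATF4 with a C/EBP partner, was found in the same window in 8 of 24 promoters of the list and in 3.91% of all genes. Of the 8 genes with it 5 rose and 1 fell, and of the 16 without it 8 rose and 2 fell. It is shown for 3 genes that rose, in capitals, and lies on the opposite strand in Chac1 and Nupr1.
Chac1 (chr2:119351019-119351086, plus strand): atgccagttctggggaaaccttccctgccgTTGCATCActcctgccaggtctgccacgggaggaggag
Nupr1 (chr7:126625543-126625610, minus strand): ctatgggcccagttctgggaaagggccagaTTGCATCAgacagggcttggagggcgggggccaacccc
Asns (chr6:7693210-7693262, minus strand): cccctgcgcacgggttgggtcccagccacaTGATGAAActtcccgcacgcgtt
Of 7 further elements searched against their own lists, the interferon-stimulated element (GAAA, any 2 bases, GAAA) was in 9 of 23 interferon and inflammatory promoters and 3.46% of all genes. The glucocorticoid element ACANNNTGT was in 3 of 14 glucocorticoid-induced genes and 6.76% of all, the E-box CACGTG in 5 of 16 clock genes and 6.86% of all, the E2F element TTTCCCGC in 3 of 30 cell cycle genes and 1.03% of all, and the cyclic AMP element TGACGTCA in 1 of 19 cyclic AMP signalling genes and 1.77% of all. The oestrogen-related receptor element TCAAGGTCA and the sterol element were in 0 of 46 respiratory chain and 0 of 17 cholesterol promoters, and in 0.422% and 0.0814% of all genes. With such low shares the absence of a match says nothing about these lists.

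Genes known to be induced by glucocorticoids fell more often than they rose. Of 17 tested members, 9 fell and 1 rose, with a median of -0.76. All 9 falls held in every fit that left out 1 library. Fkbp5, a co-chaperone of the receptor and one of its most responsive targets, was at 371, 324 and 331 CPM at day 4 and at 42.5, 70.5 and 50.8 CPM at day 8, against a mean of 28.3 CPM at day 0. The groups did not overlap and the fall was -2.65 ± 0.19 (adjusted p = 7.62e-05). Tsc22d3, the glucocorticoid-induced leucine zipper, fell from 129, 148 and 134 CPM to 35.3, 46.2 and 32.3 CPM (-1.85 ± 0.15, adjusted p = 0.000118). Sgk1, a kinase of salt and nutrient transport, was at 62.4, 206 and 90.3 CPM and then at 13.5, 14.5 and 18.7 CPM. Its fall was -2.94 ± 0.39 (adjusted p = 0.000845), and -2.30 without day 4 replicate 2, which held the highest value.

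Glul, the glutamine synthetase, fell (-1.35 ± 0.16), as did the transcription factor Zbtb16 (-1.28 ± 0.23) and Nfkbia, the inhibitor of NF-κB (-1.22 ± 0.09). Hif3a was the lowest member in CPM and fell from 4.16, 4.35 and 5.33 CPM to 0.558, 0.695 and 1.20 CPM (-2.49 ± 0.33, adjusted p = 0.000834). Other known targets did not pass the test. Per1 (-0.09 ± 0.18, adjusted p = 0.734), Klf9 (0.03 ± 0.13, adjusted p = 0.886), Angptl4 (0.17 ± 0.16, adjusted p = 0.454) and the metallothionein Mt1 (0.16 ± 0.18, adjusted p = 0.527) were not called. The list therefore held falls of over 4-fold beside members with values near 0. Pdk4, described above, was the member that rose. The prostaglandin genes, which bear on indomethacin, had 2 rises and 3 falls of 17 (29.4% called, against 31.8% of all tested genes). Ptgs2, the inducible cyclooxygenase, rose from 1.69, 1.46 and 0.423 CPM to 9.99, 8.95 and 7.00 CPM (2.86 ± 0.36, adjusted p = 0.000684), against a mean of 50.9 CPM at day 0. Hpgd, which inactivates prostaglandins, fell (-1.65 ± 0.27, adjusted p = 0.00231).

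**Figure D3:**
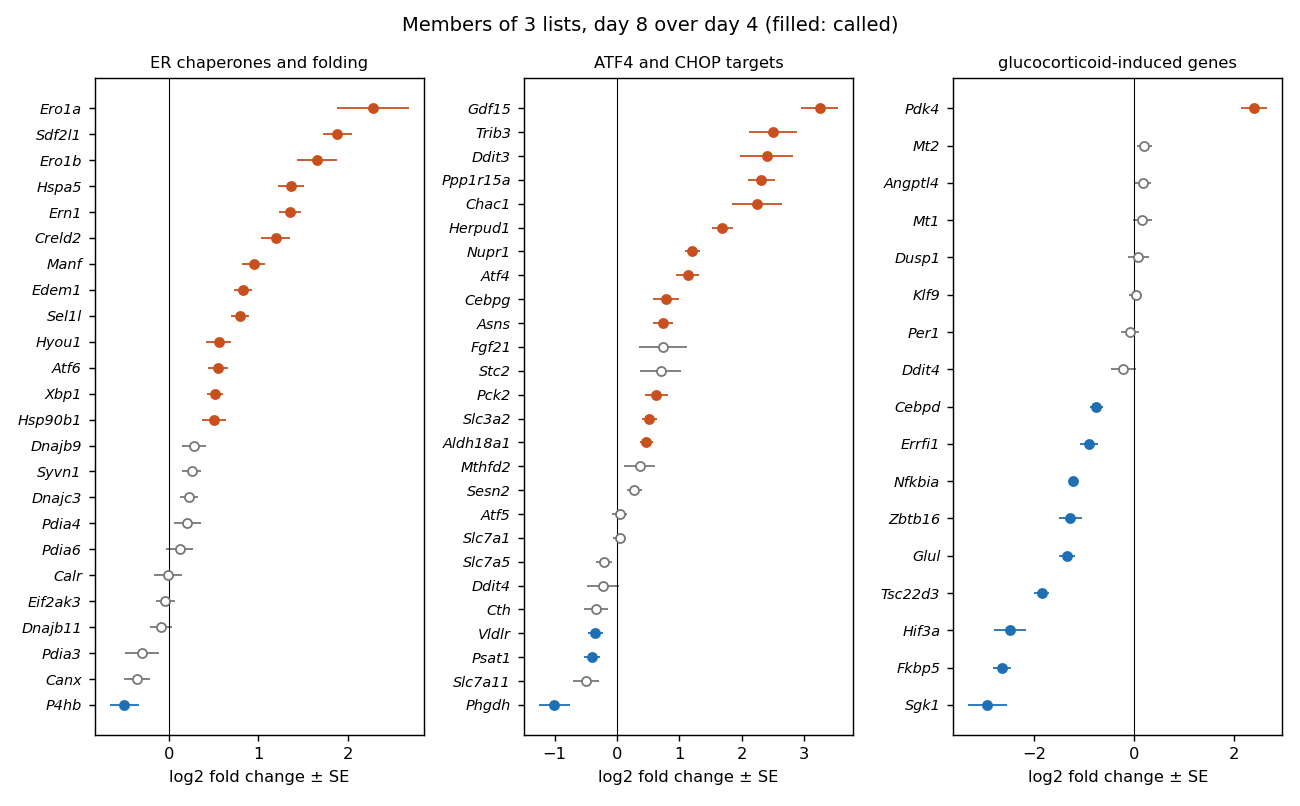
Fitted log2 fold change at day 8 over day 4 with its standard error for each tested member of the ER, ATF4 and CHOP, and glucocorticoid lists. Filled points were called (orange higher, blue lower) and open points were not. The ER list has 13 orange points, the ATF4 and CHOP list 13, and the glucocorticoid list 9 blue points and 1 orange.

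Several main enzymes of fatty acid and cholesterol synthesis fell, while other genes of fatty acid synthesis rose. Fasn, the fatty acid synthase, stood at 15232, 9896 and 16165 CPM at day 4 and at 6295, 6616 and 6132 CPM at day 8. The groups did not overlap and the fall was -1.12 ± 0.21 (adjusted p = 0.0045). Acaca, the carboxylase before it, fell from 678, 415 and 632 CPM to 283, 270.0 and 282 CPM (-1.05 ± 0.18, adjusted p = 0.003). Acly, which supplies acetyl-CoA, fell (-1.52 ± 0.37, adjusted p = 0.0135), but not without day 8 replicate 1 (adjusted p = 0.0584). The transcription factor Srebf1 (-0.85 ± 0.16, adjusted p = 0.00451) and the lipogenic protein Thrsp (-1.78 ± 0.41, adjusted p = 0.0101) were the other falls of the list. Of the 19 genes of the list 5 fell and 6 rose, so the list as a whole had no common direction. Its median was 0.25, and -0.08 without the libraries that stood apart. The 5 falls are the genes named above, and the 6 that rose are not named here. The rises numbered 1 without day 8 replicate 2, 2 without day 8 replicate 3, 2 without day 4 replicate 3 and 3 without day 8 replicate 1 or day 0 replicate 1. Scd1, the desaturase that makes oleic acid, lay higher in each day 8 library, at 21384, 18778 and 19317 CPM against 14436, 4129 and 10992 CPM, without passing the test (1.01 ± 0.37, adjusted p = 0.0619).

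In cholesterol synthesis and uptake 7 of 26 genes fell and 1 rose, with 4 falls without day 8 replicate 1 or replicate 2. Cyp51, the lanosterol demethylase, went from 1359, 692 and 1487 CPM to 179.7, 207 and 305 CPM (-2.35 ± 0.30, adjusted p = 0.000685). Dhcr7, of the last step to cholesterol, fell from 308, 407 and 475 CPM to 97.5, 98.0 and 119 CPM (-1.92 ± 0.17, adjusted p = 0.000175). The exporter Abca1 also fell (-0.71 ± 0.17).

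Genes that store and release triglyceride changed one by one rather than together. In triglyceride synthesis and lipid droplets 4 of 25 genes rose and 3 fell (28.0% called), with 2 rises without day 8 replicate 1. In lipolysis 2 of 15 rose and 2 fell (26.7% called). Of all tested genes 31.8% were called. Pck1, which makes the glycerol backbone from pyruvate, rose from 44.7, 14.9 and 38.3 CPM to 278, 214 and 185 CPM (2.79 ± 0.37, adjusted p = 0.000834). Abhd5, the coactivator of the first lipase, fell from 712, 499 and 729 CPM to 358, 311 and 289.6 CPM (-1.02 ± 0.16, adjusted p = 0.00174). Abhd6, a monoacylglycerol hydrolase, rose from 8.93, 6.22 and 8.57 CPM to 37.9, 37.0 and 31.9 CPM (2.17 ± 0.17, adjusted p = 0.000106). In each of these genes the groups did not overlap. The lipases Pnpla2 (-0.09 ± 0.19, adjusted p = 0.754) and Lipe (0.28 ± 0.23, adjusted p = 0.372) were not called.

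Part of glucose uptake and glycolysis rose. Of 23 genes of the list 7 rose and 1 fell, with a median of 0.63, and 6 rises held in every fit. The share called was 34.8%, against 31.8% of all tested genes. Without day 4 replicate 1 the rises numbered 12. Slc2a1, the insulin-independent glucose transporter GLUT1, rose from 231, 107 and 196 CPM to 807, 630.2 and 548 CPM (1.89 ± 0.27, adjusted p = 0.00123). Slc2a4, the insulin-dependent GLUT4, was not called (0.16 ± 0.38, adjusted p = 0.766). Pfkp, a phosphofructokinase, was at 257, 168 and 197 CPM and then at 797, 794 and 489 CPM (1.74 ± 0.22, adjusted p = 0.000685). The lactate carrier Slc16a1 rose by 1.5 ± 0.18, and Bsg, the chaperone that carries it to the membrane, from 2700.5, 1145 and 2199 CPM to 6880.3, 7794 and 6052 CPM (1.78 ± 0.28, adjusted p = 0.00202). Among 20 glycogen genes 9 rose and 1 fell. Stbd1, which ties glycogen to membranes, rose from 15.0, 11.1 and 9.67 CPM to 85.6, 85.6 and 85.5 CPM (2.84 ± 0.28, adjusted p = 0.000266), and the glycogen synthase Gys1 was not called (0.17 ± 0.24, adjusted p = 0.631).

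In amino acid uptake and one-carbon metabolism more genes fell than rose. Among 25 transporters 10 fell and 2 rose, with 5 falls without day 8 replicate 1 or replicate 2 and 6 without day 4 replicate 2. Slc1a5, a glutamine carrier, fell from 4329, 3683 and 4647 CPM to 1307, 1647 and 1614 CPM (-1.47 ± 0.15, adjusted p = 0.000317). Slc7a10, a carrier of serine and other small amino acids, rose from 22.1, 7.02 and 22.0 CPM to 70.3, 57.1 and 50.6 CPM (1.80 ± 0.35, adjusted p = 0.00482). Both had groups that did not overlap. In the serine, glycine and one-carbon list 8 of 21 fell and 2 rose, with 5 falls without day 8 replicate 1 and 4 without replicate 2. The falls included the cytosolic folate enzyme Aldh1l1 (-1.60 ± 0.19) and Cbs, of cysteine synthesis (-2.86 ± 0.26). The mitochondrial folate enzymes Aldh1l2 (0.98 ± 0.22) and Shmt2 (0.81 ± 0.18) were the members that rose. Bcat2, the first enzyme of branched-chain amino acid breakdown, fell from 898, 639.8 and 1045 CPM to 373, 379 and 353 CPM (-1.23 ± 0.17, adjusted p = 0.000982).

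Genes of the collagens and of the matrix around the cells fell far more often than they rose. Of 27 collagen chains 14 fell and 1 rose, with a median of -1.25. Their summed level was 69321, 94246 and 72354 CPM at day 4 and 26422, 28162 and 48317 CPM at day 8. Each day 8 library lay below each day 4 library, and replicate 3 was the highest of day 8. The falls numbered 7 without day 8 replicate 1 or replicate 2 and 19 without the libraries that stood apart. Col1a1, a chain of collagen I, was at 16254, 24930.3 and 16492 CPM and then at 5217, 6222 and 11866 CPM. Its fall of -1.31 ± 0.34 (adjusted p = 0.0171) was lost without day 8 replicate 1 (adjusted p = 0.0668) or replicate 2 (0.0688). Chains of other collagens fell in every fit that left out 1 library, among them Col5a1, from 2244, 3515 and 2488 CPM to 485, 581 and 1044 CPM (-1.97 ± 0.29, adjusted p = 0.00153), and Col6a3 (-1.13 ± 0.21).

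Collagen IV forms the sheet of the basement membrane that wraps each fat cell. Col4a1 fell from 7387, 8659 and 7375 CPM to 2548, 2675 and 3203 CPM (-1.47 ± 0.17, adjusted p = 0.000518), and its partner chain Col4a2 also fell (-1.68 ± 0.19). At day 0 the mean of Col4a1 was 3029.8 CPM, close to the day 8 values. In the basement membrane list 11 of 19 fell and 1 rose, with 7 falls without day 8 replicate 1. Col4a1 and Col4a2 are counted both there and in the collagen list. Lama2, a laminin chain, fell from 479, 859 and 553 CPM to 134, 142 and 266 CPM (-1.80 ± 0.29, adjusted p = 0.00213), while Lama4, another laminin chain, was at 1407, 1482 and 1357 CPM and then at 1441, 1499 and 1477 CPM (0.06 ± 0.14, adjusted p = 0.783).

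Of 45 matrix glycoproteins and proteases 26 fell and 2 rose, with 10 falls without day 8 replicate 1, 11 without replicate 2 and 32 without the libraries that stood apart. Vcan, a large proteoglycan, went from 655, 1689 and 772 CPM to 121, 114 and 242 CPM (-2.71 ± 0.40, adjusted p = 0.00141). Eln, the elastin gene, fell (-2.68 ± 0.38), as did Postn, periostin (-1.59 ± 0.32). Fn1, fibronectin, fell (-1.44 ± 0.38, adjusted p = 0.0183), a call lost without day 8 replicate 1 (adjusted p = 0.0743) or replicate 2 (0.0722). Precursor markers also fell more often than they rose, but their summed level overlapped between the days, unlike that of the matrix. Of 28 precursor markers 12 fell and 0 rose, with 6 falls without day 8 replicate 1 and 7 without replicate 2. Their median was -0.70, and -0.35 without day 4 replicate 2. Ly6a, the progenitor surface protein SCA-1, was at 221, 534 and 252 CPM and then at 108, 98.4 and 125 CPM (-1.60 ± 0.31, adjusted p = 0.00483). Osr1, a transcription factor of connective tissue precursors, fell from 29.4, 51.6 and 36.0 CPM to 3.27, 3.53 and 5.40 CPM (-3.26 ± 0.27, adjusted p = 0.000123). Pdgfra, the receptor used to mark fat precursors, gave -1.11 ± 0.30 (adjusted p = 0.0196), a fall lost without day 8 replicate 1 (adjusted p = 0.0771) or replicate 2 (0.0685). Dlk1, a preadipocyte protein, gave -1.07 ± 0.28 (adjusted p = 0.0178) and missed the threshold without day 8 replicate 1 (adjusted p = 0.0698). The part of leftover precursors in the matrix changes was not tested.

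**Figure D4:**
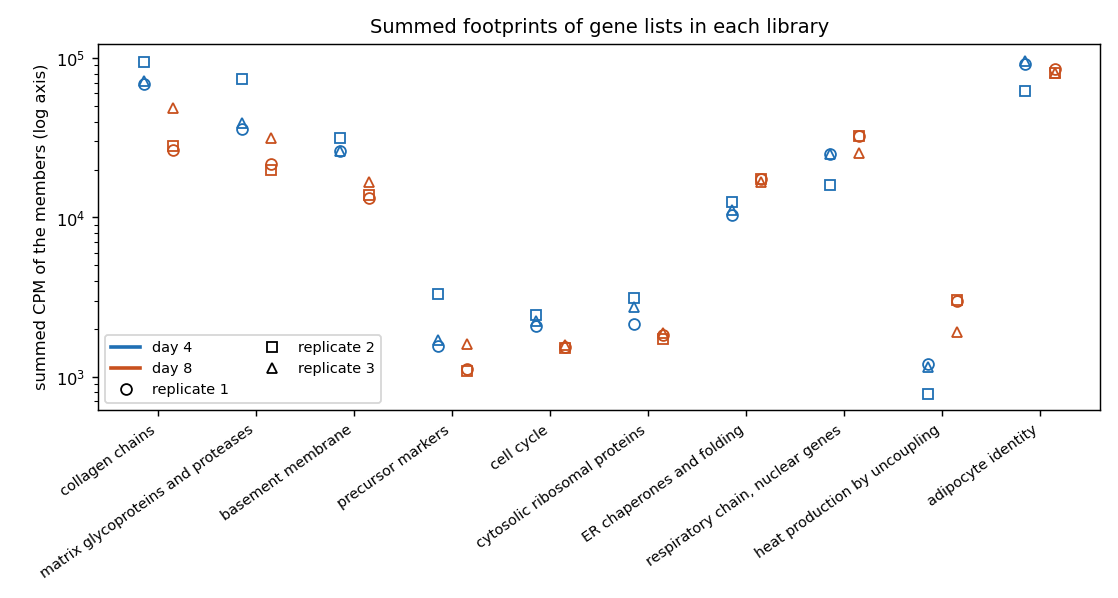
Summed CPM (log axis) of the members of 10 lists in each library of day 4 (blue) and day 8 (orange), with symbols for the replicates. Collagens, matrix, basement membrane and cell cycle genes lie lower in every day 8 library, ER chaperones and heat production genes lie higher, and day 4 replicate 2 (blue square) and day 8 replicate 3 (orange triangle) lie off their groups in the matrix and precursor sums.

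Most cell division genes fell between day 4 and day 8. Of 37 genes 26 fell and 1 rose, with a median of -0.80, and 20 fell in every fit that left out 1 library. The summed level was 2096, 2450.4 and 2235 CPM at day 4 and 1534, 1521 and 1585 CPM at day 8. Mki67, a marker of dividing cells, was at 17.6, 22.0 and 19.3 CPM and then at 3.46, 4.33 and 9.60 CPM (-1.76 ± 0.32, adjusted p = 0.00377). Mcm5, of the replication helicase, fell from 12.3, 17.1 and 15.8 CPM to 2.93, 3.72 and 6.41 CPM (-1.79 ± 0.26, adjusted p = 0.00139). The inhibitor Cdkn1c, which holds cells out of division, also fell (-2.35 ± 0.34).

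Genes of protein synthesis also fell more often than they rose, although many of them are hard to count. Of 79 cytosolic ribosomal proteins 47 fell and 0 rose, with a median of -0.64 and a summed level of 2139, 3106 and 2748 CPM at day 4 and 1842, 1731 and 1872 CPM at day 8. Named pseudogenes in the table match 64 of the 79 genes, and 44 lay under 10 CPM on both days, so reads shared with such copies may be missing and these values are uncertain. The falls numbered 27 without day 4 replicate 3, 25 without day 8 replicate 1 and 26 without day 8 replicate 2. Among 51 initiation and elongation factors 17 fell and 3 rose, with 9 falls without day 8 replicate 1 and 10 without replicate 2. Eif4g1, the scaffold of cap-dependent initiation, fell from 732, 729 and 754 CPM to 386, 396 and 404 CPM (-0.90 ± 0.10, adjusted p = 0.000482). Eif4a2, an initiation helicase, was the gene whose rise held in every fit that left out 1 library, from 99.9, 86.5 and 95.4 CPM to 194, 179 and 166 CPM (0.94 ± 0.12, adjusted p = 0.000619).

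Heme and iron genes moved in both directions. Hmox1, the heme oxygenase, had the smallest adjusted p among the members of the iron and antioxidant lists and rose from 383, 477 and 404 CPM to 2908, 3348 and 2554 CPM (2.80 ± 0.16, adjusted p = 3.12e-05). Slc40a1, the iron exporter ferroportin, rose from 2.01, 1.38 and 3.55 CPM to 11.8, 16.0 and 19.3 CPM (2.76 ± 0.42, adjusted p = 0.00163). Tfrc, the transferrin receptor for iron uptake, fell from 347, 357 and 488 CPM to 117, 134 and 140.4 CPM (-1.60 ± 0.15, adjusted p = 0.000181). None of these groups overlapped. In iron and heme handling 8 of 26 rose and 3 fell, with 5 rises without day 8 replicate 1 or replicate 2, and in antioxidant defence 7 of 29 rose and 4 fell, with 2 falls without either of the same libraries. The peroxidases Prdx6 (-1.21 ± 0.12) and Gpx1 (-0.73 ± 0.10) were among the falls.

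Subunits of the proteasome moved both ways. Of 35 genes 6 rose and 9 fell, with 5 falls without day 4 replicate 3, 4 without day 8 replicate 1 and 2 without day 8 replicate 2. The inducible subunits of the immunoproteasome all rose, Psmb9 from 5.20, 5.61 and 4.43 CPM to 21.4, 30.3 and 25.6 CPM (2.34 ± 0.16, adjusted p = 7.25e-05), Psmb8 by 1.33 ± 0.16 and Psmb10 by 0.60 ± 0.11. In the interferon and inflammatory list 11 of 31 rose and 4 fell, with 20 rises without day 4 replicate 2 and 21 without both libraries that stood apart. Isg15, an interferon-induced ubiquitin-like protein, rose from 11.9, 22.1 and 10.3 CPM to 49.0, 41.2 and 40.5 CPM (1.56 ± 0.28, adjusted p = 0.00325). The acute-phase proteins Hp (-2.29 ± 0.21) and Lcn2 (-1.86 ± 0.31) fell. Hp, haptoglobin, was at 3064, 2589 and 4142 CPM and then at 765, 587 and 651 CPM.

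Markers of macrophages and blood cells were followed beside these genes. Their summed level was 104, 119 and 133 CPM at day 4 and 31.0, 61.0 and 73.4 CPM at day 8, and 5 of 14 tested markers fell and 1 rose, with 3 falls without day 4 replicate 3 or day 8 replicate 2. C1qa, a complement gene of macrophages, fell from 3.81, 6.03 and 7.25 CPM to 0.363, 1.12 and 1.32 CPM (-2.60 ± 0.46, adjusted p = 0.00315). Lyz2, their lysozyme, was at 20.3, 31.0 and 30.9 CPM and then at 1.06, 10.1 and 15.4 CPM, lowest in day 8 replicate 1 (-1.63 ± 0.67, adjusted p = 0.0887). Mmp12, the macrophage elastase, was near 0 at day 4 and at 0.782, 11.2 and 7.17 CPM at day 8, also lowest in replicate 1 (6.34 ± 1.12, adjusted p = 0.00324, or 5.65 without day 8 replicate 2). Mmp12 is counted in the list of matrix glycoproteins and proteases and not among the 14 markers, of which 12 had negative and 2 positive fold changes. The leukocyte gene Ptprc was not called (-0.19 ± 0.13, adjusted p = 0.312). The part of macrophages in the inflammatory and Mmp12 changes was not tested. Endothelial and mural markers summed to 162, 161 and 171 CPM at day 4 and 175, 165 and 153 CPM at day 8, epithelial, mesothelial and nerve markers to 102, 54.0 and 49.4 CPM and 46.5, 42.7 and 48.0 CPM, and skeletal muscle markers to 3.81, 7.18 and 3.13 CPM and 7.54, 7.99 and 9.18 CPM. Of the 16 muscle markers, 3 had 0 counts in all 6 libraries, the muscle-determining factors Myod1 and Myf5 among them.

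Of the remaining lists, some had calls in both directions and others had few calls. Nuclear receptors and fat cell transcription factors had 11 rises and 10 falls of 44, with 3 and 7 without day 8 replicate 1 and 4 and 6 without replicate 2, and 7 rises without day 4 replicate 3. Branched-chain amino acid breakdown had 6 rises and 4 falls of 25, with 1 rise without day 8 replicate 1 or replicate 2 and 7 falls without day 4 replicate 2. Cytosolic tRNA synthetases, which load amino acids onto tRNA, had 4 and 4 of 20, with 1 and 2 without day 8 replicate 1 or replicate 2 and 2 and 2 without day 4 replicate 3 or day 8 replicate 3. In the same order, the actin and contraction list had 3 and 5 of 30, ATP synthase 1 and 0 of 15, and the pentose phosphate pathway 0 and 1 of 9. The plot of all lists shows these shares side by side.

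**Figure D5:**
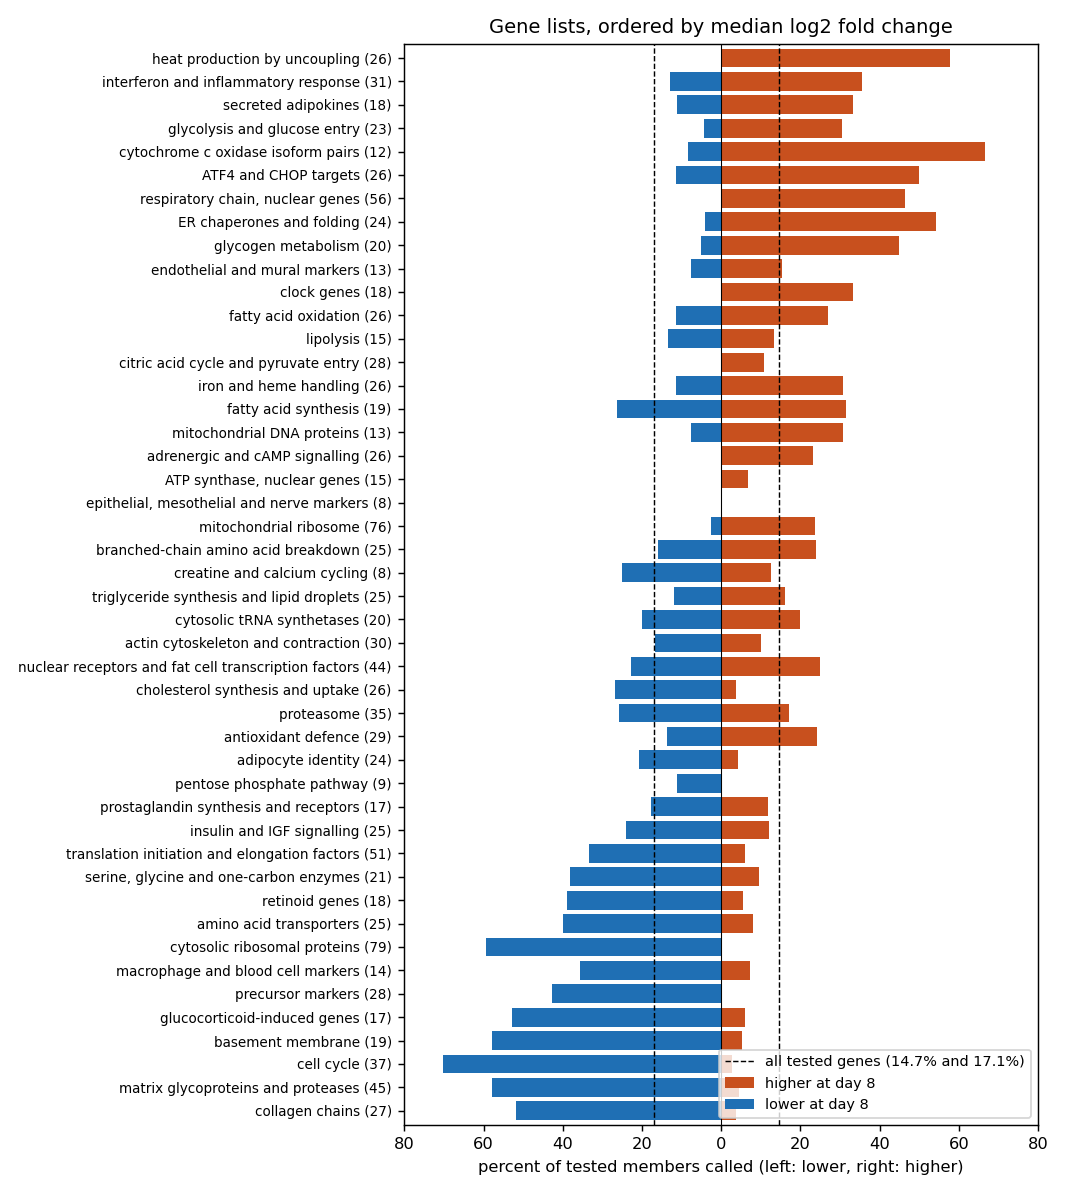
Percent of the tested members of each list called higher (orange bars to the right) and lower (blue bars to the left) at day 8, with the number tested in parentheses and lists ordered by median log2 fold change. Dashed lines mark 14.7% and 17.1%, the shares over all tested genes. Heat production lies at the top with 15 of 26 higher and collagen chains at the bottom with 14 of 27 lower.

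Secreted factors and hormone systems changed gene by gene. Of 18 secreted factors 6 rose and 2 fell. Agt, angiotensinogen, fell from 2565, 1266 and 2559 CPM to 369, 452 and 527 CPM (-2.25 ± 0.35, adjusted p = 0.00185), and Pltp, a phospholipid carrier of plasma, rose from 192, 217 and 172 CPM to 746, 694 and 653 CPM (1.85 ± 0.12, adjusted p = 7.25e-05). Nrg4, a growth factor released by brown fat, rose from 5.58, 2.12 and 6.57 CPM to 15.6, 12.6 and 11.1 CPM (1.47 ± 0.34, adjusted p = 0.0109), and Vegfa, which draws in blood vessels, rose by 1.79 ± 0.31. In insulin and IGF signalling 6 of 25 fell and 3 rose (36.0% called), and 3 fell without day 8 replicate 1. The binding proteins Igfbp3 (-2.16 ± 0.32) and Igfbp6 (-2.20 ± 0.22) had the deepest falls of that list. Among 18 clock genes 6 rose and 0 fell (33.3% called, against 31.8% of all tested genes). Nr1d2, a repressor of the clock loop (1.27 ± 0.18), Dbp (1.01 ± 0.21) and Per3 (1.10 ± 0.25) rose in every fit. The hour of harvest was not stated in the labels. Of 18 retinoid genes 7 fell and 1 rose, with 4 falls without day 8 replicate 1 or replicate 2. Rdh12, a retinal reductase, fell from 75.7, 25.6 and 67.9 CPM to 7.34, 7.00 and 13.0 CPM (-2.63 ± 0.40, adjusted p = 0.00165), and Aldh1a1, which makes retinoic acid, also fell (-1.77 ± 0.26).

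The largest single changes were taken by rule from genes whose groups did not overlap, that were also called without the libraries that stood apart, and whose higher group averaged 100 or more counts per library. Cdsn, a cell adhesion protein of skin, rose from 5.50, 3.66 and 3.30 CPM to 186, 126 and 151 CPM (5.21 ± 0.23, adjusted p = 7.55e-06). Nos2, the inducible nitric oxide synthase, was under 0.1 CPM in each day 4 library and reached 5.05, 3.88 and 3.81 CPM (6.15 ± 0.48, adjusted p = 0.000115). Ano1, a chloride channel, went from 0.0872, 0.0275 and 0.113 CPM to 6.56, 7.22 and 1.34 CPM (6.0 ± 0.83), Depp1 rose by 4.80 ± 0.68 (5.73 without day 4 replicate 1), and Ch25h, which makes a signalling sterol, by 4.48 ± 0.41. All of these rose from levels that were low in every day 4 library. Map7d2, a microtubule-binding protein, had the smallest adjusted p of all tested genes and fell from 102, 89.4 and 118 CPM to 1.98, 2.99 and 2.55 CPM (-5.36 ± 0.18, adjusted p = 1.13e-06). Sult1a1, a sulfotransferase, fell from 106, 72.3 and 97.1 CPM to 5.72, 6.44 and 7.45 CPM (-3.81 ± 0.22, adjusted p = 3.12e-05). Their day 0 means were 0.246 CPM and 0.43 CPM, so both peaked at day 4 among the 3 days. Pi16, a marker of early fat progenitors, fell from 2.82, 12.6 and 3.98 CPM to 0.0279, 0.107 and 0.448 CPM (-5.04 ± 0.81, adjusted p = 0.002), or -4.11 without day 4 replicate 2 and -6.50 without day 8 replicate 3. Cxcl13, a chemokine, gave -5.97 ± 0.71 (-5.25 without day 4 replicate 3), and Il1r2, the decoy receptor of interleukin 1, -5.09 ± 0.56 (-6.23 without day 8 replicate 3). By the difference in CPM the deepest fall under the same criteria was that of Gsn, the actin-severing protein gelsolin, from 23405, 16065 and 24116 CPM to 3679, 4789 and 6771 CPM (-2.06 ± 0.27, adjusted p = 0.000834), with a day 0 mean of 1431 CPM.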

How the data were processed

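Ribosome footprints (Ribo-seq) of 9 libraries were deposited by the authors as raw counts per gene. Per the submitters' processing notes the tools were cutadapt, HISAT2 and featureCounts with the mouse build GRCm39; versions and the treatment of reads with several matches were not given in the sources used here. Matched RNA was not analysed here, and a few genes are not reported here.

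Genes were kept with filterByExpr (minimum count 10), scaled by TMM and tested with edgeR 4.0.16 (glmQLFit, glmQLFTest, R 4.3.3) in 1 fit of all 9 libraries, with day 8 minus day 4 as the contrast and p-values adjusted over all 14714 genes. CPM use TMM-scaled totals, and each standard error is the size of the log2 fold change divided by the square root of F. Limma 3.58.1 (voom) and DESeq2 1.42.0 were alternatives, beside other scalings, filters, libraries and designs. P-values measure the spread between these libraries, which may be technical, since the sources used here do not say where replicates came from. No library pair looked like a repeat of 1 library. The procedure was tested on simulated counts. Promoters are RefSeq sequences of GRCm38.p6, another build than that of the counts, matched by symbol.

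The lists and members were chosen with earlier results of these data known, and list counts are descriptions. Named genes were the 10 largest rises and falls with no overlap, a call also without day 4 replicate 2 and day 8 replicate 3, and a mean of 100 or more counts per library on the higher day, the 6 largest in CPM, up to 4 called members of each list by adjusted p plus up to 2 of the other direction (or, in a list with none called, the 2 highest in CPM), 10 fixed genes, and all members of the heat production, cytochrome c oxidase and glucocorticoid lists; predicted genes and pseudogenes were left out, and not all of these genes are printed. Outside this rule, and chosen after their values were seen, are Acly, Adrb3, Asns, Atf4, Atf6, Calr, Canx, Chac1, Creld2, Ddit3, Ero1b, Fgf21, Fn1, Gys1, Isg15, Lama4, Lcn2, Lipe, Lyz2, Manf, Mki67, Nrg4, Pdia4, Pnpla2, Ptprc, Scd1, Slc2a4, Slc7a11, Thrsp, Trib3, Vegfa and Xbp1.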

Additional observations from a re-analysis of the deposited data

How the results depend on the processing

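Of the 164 genes named, 139 were called, 124 of these under each of the 19 alternatives, and 0 of the 139 changed sign. With library totals 3273 genes were higher and 1695 lower, and with upper quartile scaling 2311 and 2395. Without both libraries that stood apart 5481 genes were called, 2496 higher and 2985 lower. The 6 libraries of day 4 and day 8 alone gave 1641 higher and 1666 lower genes of 14113 tested. In that fit 8 respiratory chain genes rose and 0 fell, and 3 cytochrome c oxidase genes rose and 1 fell. Collagens had 9 falls and 0 rises of 23 tested, matrix glycoproteins and proteases 14 falls and 1 rise, and amino acid transporters 5 falls and 2 rises. The ER list kept 12 rises with 0 falls, and the glucocorticoid list 9 falls with 1 rise. Leaving out 1 library gave 2706 to 4899 called, 1244 to 2291 higher and 1440 to 2608 lower genes, with the lowest totals without day 8 replicate 1 or 2; the cause was not tested. DESeq2 called 5453 genes, limma-voom 4821, the fit without a low-count filter 4480, and DESeq2 size factors 4687. With the replicate block 4079 genes were called, 1926 higher and 2153 lower, and 3954 of the main calls were kept. Deviations of same-numbered libraries of day 4 and day 8 correlated at 0.188, -0.2 and -0.137 for replicates 1, 2 and 3, so the numbers were not taken to pair them. Leaving mitochondrial DNA genes and genes above 10000 CPM out of the fit gave 4699 calls.

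Genes that were not called changed sign as follows, and the cause was not tested. Calr gave 0.13 with library totals, 0.011 with upper quartile scaling, 0.0035 with limma-voom, 0.18 without both libraries that stood apart, 0.0087 without the abundant genes and -0.13 to 0.11 with 1 library left out. With library totals Per1 gave 0.055, Pnpla2 0.059 and Pparg 0.082. Without both libraries that stood apart Gys1 gave -0.096 and Slc2a4 -0.048. With 1 library left out the ranges were -0.11 to 0.35 for Gys1, -0.13 to 0.12 for Klf9, -0.28 to 0.0084 for Per1, -0.28 to 0.018 for Pnpla2, -0.28 to 0.062 for Pparg and -0.21 to 0.50 for Slc2a4.

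Depth limits the genes below about 1 CPM, and counts on ribosomal protein genes and other genes with near-identical copies are uncertain. Footprints alone do not separate mRNA amount from ribosome load. The counts are per gene, and where on a gene the footprints lay was not examined, for Atf4, Ddit3 and Ppp1r15a as for all others.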
